A study of Mus musculus with 15 samples.

Results

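Primary mouse myoblasts in which Sirt1 was knocked down were compared with the same kind of cells in which Lmod1 was knocked down. The members are the libraries of the deposited table that sets these 2 knockdowns side by side, 5 that received small interfering RNA (siRNA) against Sirt1 (siSirt1) and 5 that received siRNA against Lmod1 (siLmod1). They make up 10 of the 15 libraries of the series. The other 5 received control siRNA (siCtrl) and are used here only to show where a level lay without either knockdown.

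Every library came from wild-type (WT) C57BL/6J mice, from primary myoblasts of muscle that were transfected with siRNA in a lipid reagent. After 1 day of differentiation, polyadenylated RNA was sequenced in reads of 150 bp. The 5 primary lines were numbered 1, 2, 3, 4 and 7, with 1 library per line and group, and a number is taken as the same line in each group. Series of 5 values below follow that order of lines. How many mice a line came from is not given in the sources used here, and neither are the siRNA sequences or whether more than 1 was used per target. The library kit keeps no strand, so reads of overlapping or antisense genes cannot be told apart.

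Lmod1 encodes leiomodin 1, a protein that nucleates actin filaments and is best known from smooth muscle. Sirt1 encodes sirtuin 1, a deacetylase that uses NAD as a cosubstrate and acts on histones and on transcription factors such as FoxO proteins, p53 and MyoD. In myoblasts, SIRT1 is known as a brake on differentiation, during which cells leave the cell cycle, fuse, and build sarcomeres, sarcoplasmic reticulum and mitochondria. The study's title links the 2 proteins through the control that leiomodin 1 has over where SIRT1 lies in the cell, and its design text speaks of a rescue by the double knockdown. The direct comparison shows in which transcripts the 2 single knockdowns differ.

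Depth was 27135398 to 31829009 counts in the siLmod1 libraries and 21004908 to 27815744 in the siSirt1 libraries. Genes with a count numbered 20189 in siSirt1 line 4 and 19226 in siSirt1 line 7, and 21791 to 22942 in the other 8 libraries. The muscle identity of the cells held in all of them: Myod1, the transcription factor that defines myoblasts, stood between 639 and 955 CPM (counts scaled to the library total) in siLmod1 and between 743 and 941 in siSirt1. Summed levels of macrophage, endothelial and adipocyte markers were at most 15.2, 91.1 and 9.36 CPM in any of the 10 libraries, and Schwann cell markers summed to 90.9 to 542 CPM in siLmod1 and 65.8 to 560 in siSirt1. Fibroblast markers summed to 108 to 305 CPM in siLmod1, 153 to 803 in siSirt1 and 146 to 514 in siCtrl. They were higher in siSirt1 than in siLmod1 in 5 of 5 lines, with 2 of the 12 markers at 0 in all 10 libraries. Col3a1 was the main part of these sums. Line was the main source of spread, since the first principal component (39.8% of the variance) placed the line 4 libraries at 96.9 and 118.4 and the other 8 between -52.6 and 7.1. The second (19.5%) placed the siSirt1 library of line 7 at 103.5, with the others between -49.3 and 22.9. Because these libraries stand apart, the main counts are also given without lines 4 and 7.

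Each targeted transcript was low in its own knockdown. Sirt1 lies on mm10 chromosome 10, 63319005 to 63381704. Its level was 40.2, 27.1, 33.6, 37.1 and 52.4 CPM in siLmod1, 4.96, 3.37, 3.62, 11.4 and 9.90 in siSirt1 and 27.7, 16.5, 21.8, 26.4 and 34.2 in siCtrl. All 5 siSirt1 libraries lay below all 5 siLmod1 libraries, and siLmod1 lay above siCtrl in every line. Relative to siLmod1, Sirt1 was 6.64-fold lower in siSirt1 (log2 fold change -2.73, SE 0.21, edgeR quasi-likelihood test with Benjamini-Hochberg adjustment, adjusted p = 9.2e-04). Over all assignments of the 10 libraries, an exact permutation test (two-sided) had p = 0.00794, the minimum for groups of 5. With labels exchanged only within a line, the exact permutation p was 0.0625, the smallest that 5 pairs allow.

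Lmod1 lies on mm10 chromosome 1, 135324807 to 135368065. Its level was 2.55, 5.28, 4.02, 1.39 and 4.05 CPM in siLmod1, 8.95, 31.4, 25.5, 3.67 and 15.9 in siSirt1 and 23.4, 40.8, 35.5, 5.77 and 41 in siCtrl. It was higher in siSirt1 than in siLmod1 within each of the 5 lines, but the groups overlapped because line 4 had little Lmod1 under either siRNA. In siSirt1 it stayed under the siCtrl level in each line, so neither knockdown group had an unperturbed amount of both targets. The log2 fold change was 2.04 (SE 0.23, edgeR adjusted p = 0.0024), or 4.11-fold. By the exact permutation test (two-sided) p was 0.0317 over all assignments and 0.0625 with labels exchanged only within a line. Without the line as a block the edgeR adjusted p was 0.091, above the threshold.

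**Figure D1:**
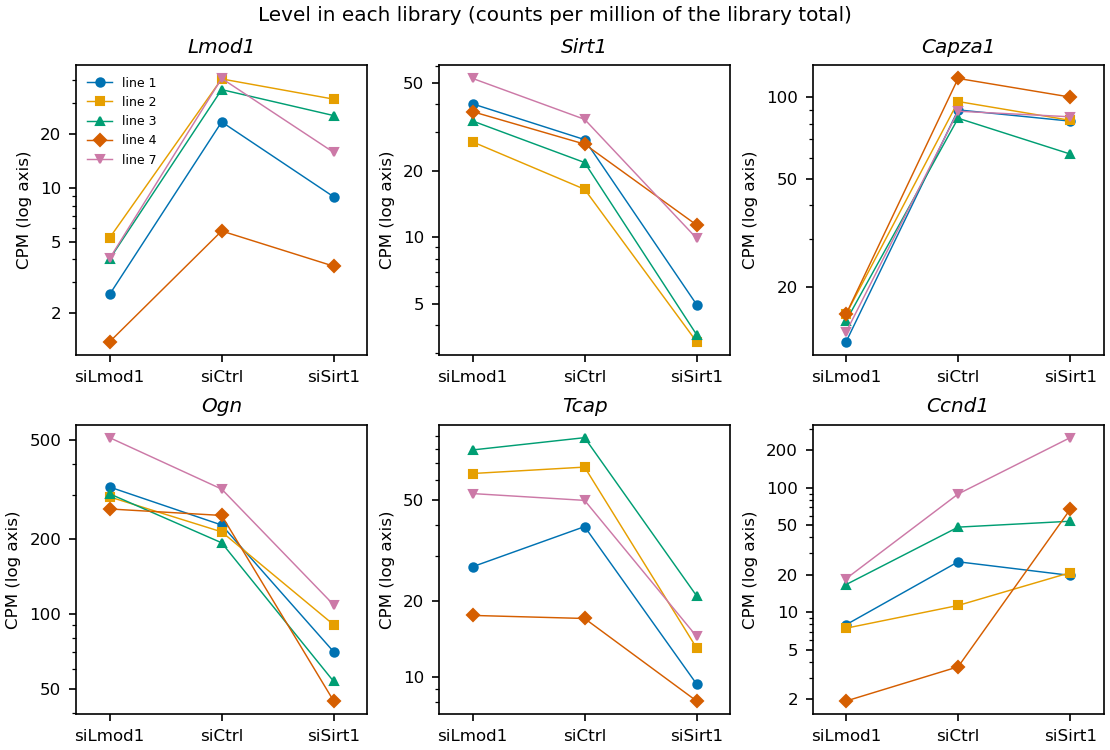
Level of 6 genes in each of the 15 libraries, as CPM of the library total on a log axis, with 1 symbol and joining line per primary line. Sirt1, Ogn and Tcap were lower and Lmod1, Capza1 and Ccnd1 higher in siSirt1 than in siLmod1 in all 5 lines; in siCtrl, Capza1 was nearer to siSirt1 and Tcap nearer to siLmod1.

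Of 14998 genes with enough reads to test, edgeR called 2379 at an adjusted p under 0.05, which is 15.9% of those tested. Of these, 1115 were higher in siSirt1 (7.43% of all tested) and 1264 lower (8.43%), and 4789 had an unadjusted p under 0.05. The changes were mostly modest: the median log2 fold change was 0.68 over the higher calls and -0.58 over the lower, and 1306 of the 2379 were 1.5-fold or more apart. The difference in CPM had the same sign in 5 of 5 lines for 94.2% of called genes, against 30.8% of all tested. The calls were made on these same line differences, so nothing is read from that contrast. The calls depended on comparing the knockdowns within each line. Without the line as a block, 229 genes were called (1.53%), 102 higher (0.68%) and 127 lower (0.847%), and all of them were among the 2379 with the same direction.

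Leaving out 1 line gave 1042, 1771, 946, 1395 and 1662 calls without lines 1, 2, 3, 4 and 7, and leaving out both lines 4 and 7 gave 2822. The balance of directions depended on the scaling: 46.9% of calls were higher in siSirt1 with TMM scaling, 60.9% with library totals only and 61.8% in limma on log2(TPM + 0.5).

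**Figure D2:**
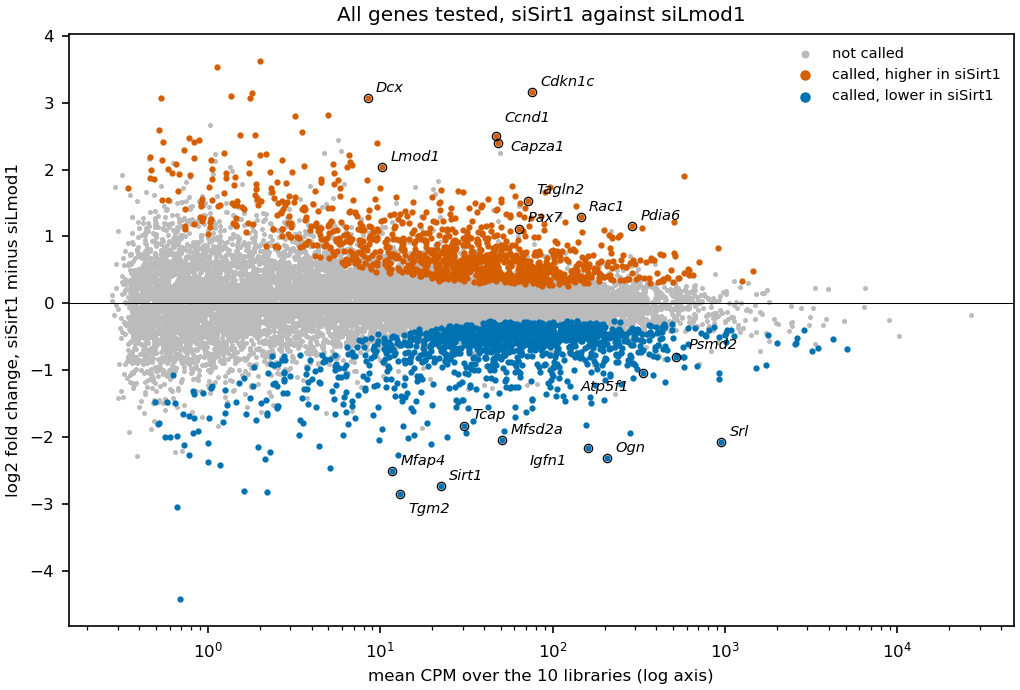
Log2 fold change of each of the 14998 genes tested against its mean CPM over the 10 libraries (log axis), with the 1115 genes called higher in siSirt1 in orange, the 1264 called lower in blue and the rest in grey. Named genes are ringed, among them Cdkn1c (3.16), Capza1 (2.40), Sirt1 (-2.73) and Srl (-2.08).

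The 12 genes with the largest higher values in siSirt1 had varied roles. Capza1, the alpha subunit of the protein that caps growing actin filament ends, had the smallest SE of them (mm10 chromosome 3, 104822779 to 104864505). It stood at 12.6, 16, 15.1, 16 and 13.7 CPM in siLmod1, 81.6, 82.2, 61.8, 100.1 and 84.7 in siSirt1 and 89.8, 96.4, 83.7, 117 and 88.8 in siCtrl. The 2 knockdowns did not overlap, the line differences lay between 2.02 and 2.61 on the log2 scale, and siSirt1 was nearer to siCtrl than siLmod1 was in each line. The log2 fold change was 2.40 (SE 0.11, edgeR adjusted p = 1.0e-04, and 1.1e-04 without the block).

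Ccnd1, which encodes cyclin D1 and drives entry into S phase, stood at 7.97, 7.47, 16.7, 1.94 and 18.7 CPM in siLmod1 and at 19.8, 20.9, 54, 67.2 and 254 in siSirt1. The groups did not overlap, yet the size varied from line to line, with log2 differences of 1.23, 1.49, 1.68, 4.97 and 3.59; lines 4 and 7 had the largest. Its fitted log2 fold change was 2.50 (SE 0.53, edgeR adjusted p = 0.02). Cdkn1c, which encodes the cyclin-dependent kinase inhibitor p57, was higher too, at 1.92, 32.2, 18.8, 0.0694 and 18.6 CPM in siLmod1 and 228, 173, 265, 0.408 and 25.8 in siSirt1. The p57 transcript was nearly absent from line 4, and its log2 differences ran from 0.30 in line 7 to 6.79 in line 1, where siCtrl held 4.21 CPM. Its fit was correspondingly wide (3.16, SE 0.89, adjusted p = 0.047).

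Several other large changes were also uneven over the lines. Dcx, the microtubule-binding protein doublecortin (3.07, adjusted p = 0.023), stood at 0.378, 7.44, 0.534, 0.0347 and 3.91 CPM in siLmod1 and 23.1, 22.6, 11.9, 0.0370 and 14.5 in siSirt1. Line 4 was below the level of 3 counts in both, and line 1 had the largest difference. Vgll2, a cofactor of TEAD transcription factors in skeletal muscle (2.40, 0.045), stood at 1.83, 1.58, 2.73, 4.09 and 0.958 CPM against 18, 20.5, 40.8, 4.30 and 1.48, which are large differences in lines 1, 2 and 3 and small ones in lines 4 and 7 (-0.06 in line 4 with TMM scaling). Fgf6, a fibroblast growth factor of skeletal muscle (2.21, 0.0098), was at 0.416 to 10.5 CPM in siLmod1 and 2.07 to 16.5 in siSirt1. Camk1d, a calcium- and calmodulin-dependent kinase (2.07, 0.0013), was the most even of these genes after Capza1, with log2 differences of 1.77 to 2.64.

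The rest of the 12 largest higher genes were Lmod1 itself and a further 4. Pros1, the anticoagulant protein S (2.11, 0.013), and Svop, a relative of synaptic vesicle transporters (2.04, 0.0078), did not overlap between the groups. Adamtsl3, a secreted ADAMTS-like matrix protein (2.08, 0.029), and Cadps2, a factor that primes secretory vesicles (1.95, 0.023), did overlap.

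Under the same rule, the 12 genes with the largest lower values in siSirt1 were Sirt1 itself and 11 others of varied roles. Of these, Ogn had the smallest SE. Ogn (mm10 chromosome 13, 49608046 to 49624501) encodes osteoglycin, a small leucine-rich proteoglycan of the matrix, and stood at 323, 295, 304, 264 and 511 CPM in siLmod1, 70.2, 90.2, 53.4, 44.5 and 108 in siSirt1 and 227, 213, 193, 248 and 317 in siCtrl. The knockdowns did not overlap, and siCtrl lay between them in each line. It was 5.00-fold lower in siSirt1 (log2 fold change -2.32, SE 0.14, edgeR adjusted p = 4.8e-04). Tgm2, the crosslinking enzyme transglutaminase 2, stood at 25, 22.6, 23.4, 25.7 and 15.3 CPM in siLmod1 and 3.27, 7.13, 2.89, 3.63 and 1.19 in siSirt1. It gave the largest difference of the 12, 7.24-fold (log2 fold change -2.86, SE 0.28, adjusted p = 0.0016), again without overlap.

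Srl encodes sarcalumenin, a calcium-binding glycoprotein of the sarcoplasmic reticulum. It stood at 1288, 2468, 1536, 424 and 1629.9 CPM in siLmod1, 374, 903, 553, 64.5 and 269.5 in siSirt1 and 1407, 2629, 1722, 446 and 1870.00 in siCtrl. The siLmod1 and siCtrl libraries of a line were alike and the siSirt1 library was lower in all 5, while the groups overlapped through line 4, which had the least in each. The log2 fold change was -2.08 (SE 0.24, adjusted p = 0.0027).

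Igfn1, a Z-disc protein of skeletal muscle (-2.17, adjusted p = 0.0044), differed in another way. It stood at 402, 199, 97.2, 314 and 217 CPM in siLmod1, 139, 54.9, 15.2, 134 and 22.6 in siSirt1 and 216, 59.5, 23.6, 133 and 25.7 in siCtrl, so that in lines 2, 4 and 7 siSirt1 was near siCtrl and siLmod1 was the one that stood apart. Ppp1r27, a regulatory subunit of protein phosphatase 1 (-2.27, 0.0038), was higher in siLmod1 than in siCtrl and lower in siSirt1 than in siCtrl in all 5 lines. Mfsd2a, a transporter of lysophospholipids (-2.05, 9.2e-04), stood at 103, 82.7, 29.2, 72.5 and 121 CPM in siLmod1 and 18, 20.6, 8.91, 26.7 and 27.2 in siSirt1, without overlap.

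The remaining 5 were Mfap4, a microfibril-associated glycoprotein (-2.52, 9.2e-04); Islr2, a leucine-rich repeat membrane protein (-2.47, 0.0076); Lrtm1, another of that kind (-2.10, 0.016); Ckmt2, the mitochondrial creatine kinase of sarcomeric muscle (-2.05, 0.015); and Slc24a4, a potassium-dependent sodium and calcium exchanger (-2.02, 0.0016). All were lower in 5 of 5 lines, which the naming rule required, and overlapped between groups. Among all 133 called genes chosen by the naming rule, 34 did not overlap, where 5.48% of all tested genes (822) did not; the rule's use of the same test chose these genes, so nothing is read from the difference.

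**Figure D3:**
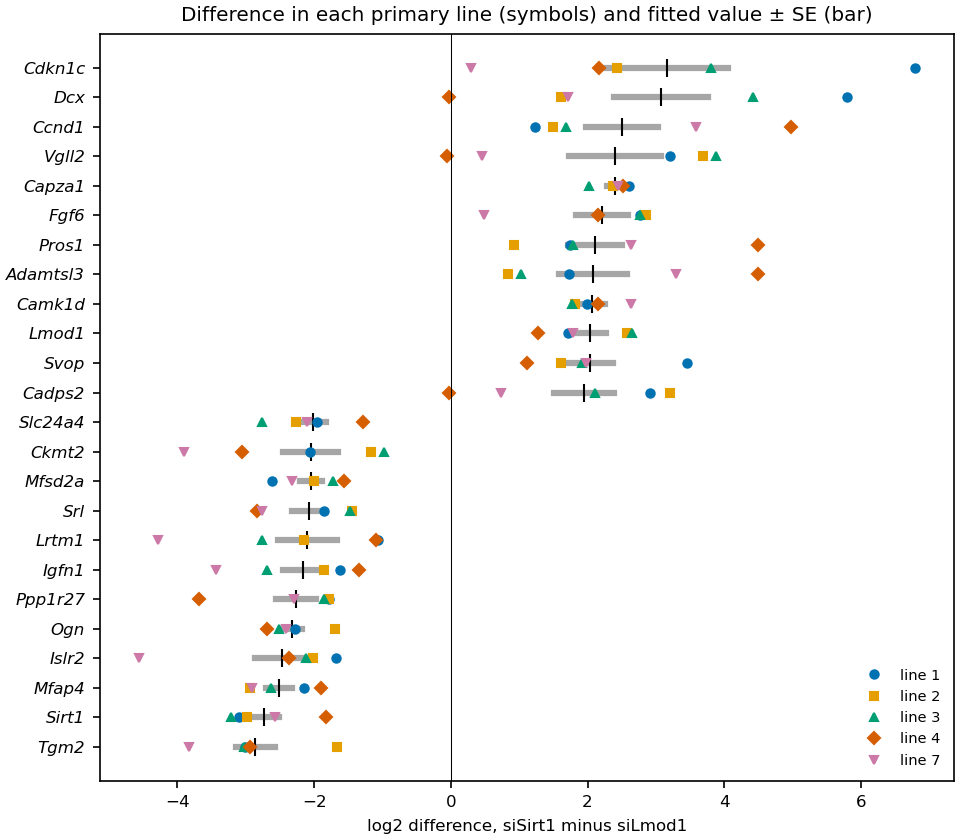
Log2 difference, siSirt1 minus siLmod1, of the 12 largest called changes in each direction, with 1 symbol per primary line and a grey bar for the fitted value ± SE. Capza1, Camk1d, Ogn and Mfsd2a were even across lines, while Cdkn1c ranged from 0.30 to 6.79 and Islr2 from -4.57 to -1.68.

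Genes that build and turn over actin filaments differed in both directions. Of 51 tested actin regulators, 8 were higher and 4 lower in siSirt1 (7.43% and 8.43% of all tested genes were), with a median log2 fold change of 0.04 against 0.005 over all tested genes. Besides Capza1 and Lmod1, Rac1, a GTPase that steers actin assembly at the membrane and in fusing myoblasts, was higher. Rac1 stood at 57.6, 109, 82.5, 81.1 and 77.7 CPM in siLmod1, 175, 201, 171, 277 and 220.04 in siSirt1 and 155, 179, 175, 206 and 169.9 in siCtrl. Here too the knockdowns did not overlap and siSirt1 lay nearer to siCtrl in each line (log2 fold change 1.29, SE 0.12, adjusted p = 0.0014).

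Evl, which promotes filament elongation (0.72, 0.0058), the formin Fmnl3 (1.01, 0.023), the cofilin phosphatase Ssh1 (0.64, 0.02), and the tropomodulins Tmod2 (0.86, 0.034) and Tmod3 (0.61, 0.027), which cap the slow-growing filament end, were also higher. Lower were the monomer-binding protein Twf1 (-1.11, 0.01), the muscle cofilin Cfl2 (-0.66, 0.023), Wasl, which activates the Arp2/3 complex (-0.62, 0.0062), and Capza2, the second capping alpha subunit (-0.27, 0.043). Capza1 and Capza2 thus differed in opposite directions, by very unequal amounts. With library totals only, Capza2 was at -0.20 and its call was lost. With single lines left out, the actin list had 5, 8, 6, 6 and 6 higher and 2, 3, 2, 2 and 2 lower members called, and without lines 4 and 7 it had 10 higher and 4 lower.

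Targets of SRF and its actin-sensing cofactors MRTF were likewise mixed, with 3 higher and 4 lower of 35 tested and a median of 0.01, shares near those of all tested genes (7.43% and 8.43%). Tagln2, an actin-bundling relative of transgelin, stood at 16.9, 13.8, 14, 83.3 and 34.2 CPM in siLmod1 and 51.1, 24.4, 40.3, 238 and 204 in siSirt1 and was higher in every line (1.53, 0.0038), with the groups overlapping because line 4 was high in both. Zyx, a focal adhesion protein (0.59, 0.01), and Flna, which crosslinks filaments (0.45, 0.042), were higher. Acta2, the smooth muscle actin that differentiating myoblasts also express (-0.67, 0.012), Pdlim5 (-0.95, 0.0043), Tpm1 (-0.59, 0.022) and Junb (-0.58, 0.038) were lower. Smooth muscle and pericyte markers, a list in which Acta2 and the muscle intermediate filament gene Des are the most abundant, summed to 5771 to 8381 CPM in siLmod1 and 3999 to 6877 in siSirt1 and were lower in 5 of 5 lines; 2 of 12 tested were called lower and 1 higher. Their part in the SRF and MRTF values was not tested. Without single lines there were 2, 4, 2, 2 and 2 higher and 2, 3, 2, 3 and 4 lower SRF and MRTF targets, and without both lines 4 and 7 there were 4 higher and 10 lower, with a median of -0.10.

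Transcripts of the contractile apparatus that passed the test were all lower in siSirt1. Of 55 tested genes of thick filaments, thin filaments and the Z-disc, 15 were lower and none higher (8.43% and 7.43% of all tested genes were), and the median was -0.49. Tcap, the Z-disc protein telethonin, stood at 27.3, 63.7, 79, 17.5 and 53.1 CPM in siLmod1, 9.38, 13, 20.9, 8.04 and 14.5 in siSirt1 and 39.3, 67.6, 88.3, 17 and 49.9 in siCtrl. In each line siLmod1 was nearer to siCtrl than siSirt1 was, and siSirt1 was lower (-1.83, SE 0.15, edgeR adjusted p = 9.8e-04), and the groups overlapped through line 4.

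Myh4, the fast IIb myosin heavy chain (-1.97, 0.0037), was at 6.00 to 57.3 CPM in siLmod1 and 1.19 to 18.7 in siSirt1. Lmod2, the leiomodin of striated muscle and a paralogue of Lmod1, stood at 249, 279.7, 232, 137 and 304 CPM in siLmod1, 79.2, 158, 148, 55 and 122 in siSirt1 and 164, 205, 157, 72.4 and 183 in siCtrl. It was higher in siLmod1 than in siCtrl in 5 of 5 lines and lower in siSirt1 than in siLmod1 in 5 of 5 (-1.23, 0.0044). Skeletal actin Acta1 (-0.69, 0.027), the fast alpha-actinin Actn3 (-1.18, 0.011), myosin light chain Myl1 (-0.97, 0.028), the thin filament chaperone regulator Klhl41 (-0.78, 0.0075) and desmin, Des (-0.61, 0.026), were among the other lower ones. Myh3, the embryonic myosin heavy chain that is the main one at this stage, did not pass (-0.49, 0.17).

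The contractile difference was not shared by all lines. The list's median was -0.48 in line 1, -0.04 in line 2, 0.13 in line 3, -0.99 in line 4 and -1.06 in line 7. Without lines 4 and 7, 12 members were lower and 5 higher, with a median of -0.19, and with 1 line left out 8, 17, 14, 9 and 11 were lower (without lines 1, 2, 3, 4 and 7). Without the block 1 member, of 55, was called. In bulk RNA, fewer differentiated cells and less of these transcripts per cell cannot be told apart.

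Sarcoplasmic reticulum and excitation-contraction coupling genes likewise had their lowest line medians in lines 7 and 4. Of 30 tested, 13 were lower and none higher (8.43% and 7.43% of all tested genes were), with a median of -0.53 and line medians of -0.49, -0.08, -0.15, -0.96 and -1.01. Next to Srl, the calcium store protein calsequestrin 1, Casq1, stood at 39.7, 54.9, 29, 11.7 and 68.3 CPM in siLmod1 and 8.95, 31, 22.2, 4.78 and 12.6 in siSirt1 (-1.48, 0.02). Cacna2d1, an auxiliary subunit of the voltage sensor, stood at 207, 324, 355, 171 and 301 and 101, 182, 151, 100.4 and 105 CPM (-1.16, 0.0024). Both were lower in each line, and their groups overlapped.

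Asph, whose locus encodes the anchor protein junctin (-1.04, 0.008), the channel subunit Cacng1 (-0.86, 0.0082) and the acetylcholine receptor subunits Chrna1 (-0.52, 0.028), Chrnd (-0.71, 0.0069) and Chrng (-0.80, 0.012) were also lower. With 1 line left out, 6, 13, 9, 8 and 7 members were lower, without lines 4 and 7 there were 8 lower and 2 higher, and without the block none was called.

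Proteasome subunits were lower in siSirt1 with little spread between members. Of 31 tested, 20 were lower and none higher (8.43% of all tested genes were lower), with a median of -0.39 and called members between -0.81 and -0.33. The line medians were -0.43, -0.22, -0.22, -0.48 and -0.57, below 0 in all 5 lines. Called members came from each part of the particle: Psma1, Psma2, Psma3, Psma5 and Psma7 of the outer rings, Psmb1, Psmb3, Psmb4, Psmb5 and Psmb7 of the catalytic rings, the ATPases Psmc2, Psmc4, Psmc5 and Psmc6, and the regulatory subunits Psmd2, Psmd6, Psmd7, Psmd12, Psmd13 and Psmd14.

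Psmd2, a scaffold of the regulatory particle, stood at 750.4, 654, 589.6, 724 and 533 CPM in siLmod1, 476, 437, 375, 412 and 272 in siSirt1 and 688, 588, 564, 649.9 and 454 in siCtrl. The knockdowns did not overlap, and siLmod1 lay above siCtrl in each line while siSirt1 lay below it (-0.81, SE 0.11, edgeR adjusted p = 0.0042). Psmb5, the subunit with chymotrypsin-like activity, stood at 153, 182, 120.3, 216 and 169.8 CPM in siLmod1 and 83.4, 132, 79.1, 115 and 97.1 in siSirt1, lower in each line, with siSirt1 line 2 above siLmod1 line 3 (-0.81, 0.0043). For all 20 called members the siCtrl mean lay between the 2 knockdowns. In contrast Psmb9, an immunoproteasome subunit in the interferon list, was higher (1.27, 0.024), at levels of 0.135 to 2.93 CPM. The count was 9, 15, 12, 10 and 11 without lines 1, 2, 3, 4 and 7, 12 lower and 1 higher without lines 4 and 7, 13 in limma on TPM and 0 without the block.

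Chaperones and heat shock regulators of the cytosol and mitochondria that passed the test were lower too: of 24 tested, 10 were lower and none higher (8.43% and 7.43% of all tested genes were), with a median of -0.35 and line medians of -0.61 to -0.18. Hsf2, a heat shock transcription factor, stood at 68.1, 77.8, 72.4, 101 and 95.5 CPM in siLmod1, 39.1, 43, 37.8, 49.4 and 44.7 in siSirt1 and 62.4, 70.5, 72.7, 92.5 and 81.9 in siCtrl. The siSirt1 libraries were all below the siLmod1 libraries, which were close to siCtrl (-1.02, SE 0.09, 0.0013). Dnaja1, a cochaperone of HSP70, stood at 180.4, 186, 177, 212 and 178 CPM in siLmod1 and 128, 125, 117, 131 and 115 in siSirt1, also without overlap (-0.67, 0.003). The muscle small heat shock proteins Hspb7 (-1.28, 0.0038), Hspb3 (-1.19, 0.02) and Hspb6 (-0.82, 0.023), the mitochondrial chaperonin Hspd1 (-0.55, 0.0052) and both cytosolic HSP90 genes, Hsp90aa1 (-0.36, 0.049) and Hsp90ab1 (-0.40, 0.045), were lower. Counts were 7, 7, 5, 5 and 6 with 1 line left out, 7 without lines 4 and 7, and 2 without the block.

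**Figure D4:**
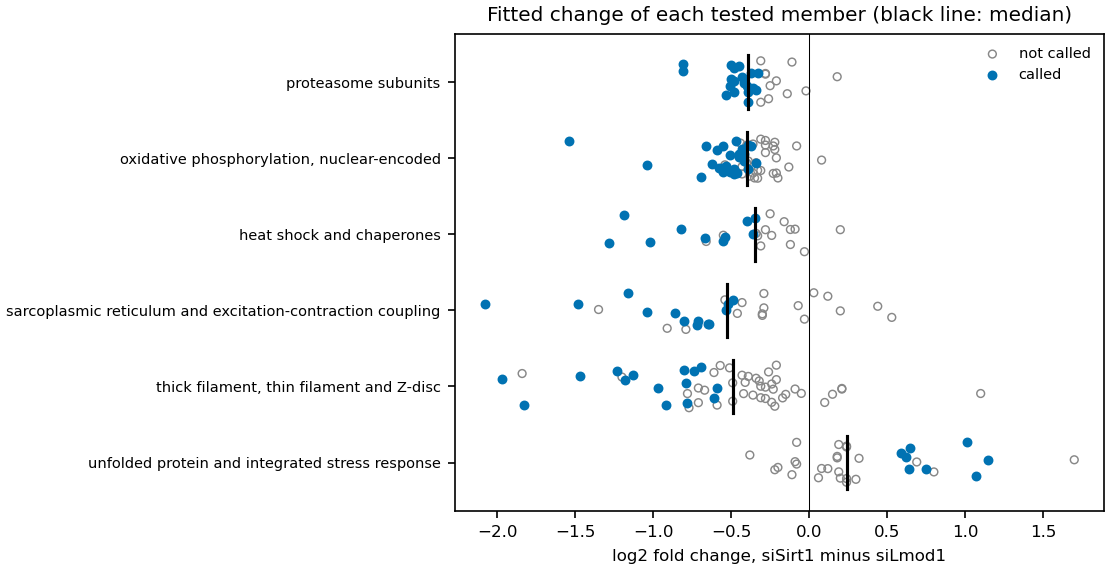
Fitted log2 fold change, siSirt1 minus siLmod1, of each tested member of 6 gene lists (filled where called, open where not), with the list's median as a black line. Proteasome members cluster around -0.39, contractile and reticulum members spread to -1.97 and -2.08, and called members of the unfolded protein response lie between 0.59 and 1.15.

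Nuclear-encoded subunits of oxidative phosphorylation were lower in siSirt1 in 27 of 57 tested cases (8.43% of all tested genes were lower), with none higher and a median of -0.40. All respiratory complexes were represented, by complex I subunits such as Ndufs8 (-0.66, 0.014), Sdha of complex II (-0.43, 0.036), Uqcrc1 and Uqcrc2 of complex III (-0.39 and -0.48), cytochrome oxidase subunits and ATP synthase. Atp5f1, which encodes the stalk subunit b of ATP synthase, stood at 459, 455, 421, 489.5 and 347 CPM in siLmod1, 236, 353, 268, 170.02 and 139.8 in siSirt1 and 377, 394, 378, 359.7 and 286 in siCtrl. It was lower in each line, most in lines 4 and 7, and only siSirt1 line 2 overlapped the siLmod1 range (-1.04, SE 0.19, 0.011). Cox7a1, the muscle form of a cytochrome oxidase subunit, had the largest change in the list (-1.54, 0.012).

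Called members of the list numbered 3, 35, 5, 7 and 7 without lines 1, 2, 3, 4 and 7, and without lines 4 and 7 there were 8 lower and 1 higher. There were 21 with library totals only, 15 in limma on TPM and 0 without the block, while the median stayed between -0.50 and -0.28 in these fits. The line medians were -0.50, -0.04, -0.25, -0.75 and -0.48. Transcripts encoded in the mitochondrial genome itself had a median of -0.33, but none of 13 passed, and their summed share of counts was lower in 3 lines and higher in 2.

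Genes of mitochondrial cristae and calcium uptake were lower in 9 of 21 tested cases (8.43% over all tested genes), with none higher and a median of -0.30. Chchd3, which encodes the cristae organiser MIC19, stood at 173, 169.9, 172, 156 and 145 CPM in siLmod1, 63.1, 83.1, 72.4, 49.2 and 66.1 in siSirt1 and 137, 135, 153, 128 and 131 in siCtrl. The groups were well apart and siCtrl was nearer siLmod1 (-1.38, SE 0.12, edgeR adjusted p = 9.8e-04, and 0.0068 without the block). Its partners Immt (-0.36, 0.022), Apoo (-0.74, 0.035), Samm50 (-0.40, 0.027) and Mtx2 (-0.79, 0.0058), and the uniporter regulators Micu2 (-0.38, 0.015) and Micu3 (-0.70, 0.016), were lower as well. The list had 4, 9, 2, 6 and 7 lower members with 1 line left out, 1 higher and 8 lower without lines 4 and 7, and 2 lower without the block.

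Among 38 tested metabolic and FoxO regulators linked to SIRT1, 5 were lower and 2 higher, with a median of -0.13. In all 18.4% of the list was called, near the 15.9% of all tested genes. For this list and the NAD list below, 8.43% of all tested genes were lower and 7.43% higher. The fatty acid oxidation enzymes Acadm (-0.64, 0.012), Acadvl (-0.40, 0.012) and Cpt2 (-0.57, 0.013), the mitochondrial superoxide dismutase Sod2 (-0.76, 0.034) and Foxo4 (-0.53, 0.0074) were lower, and Foxo1 (0.38, 0.041) and Angptl4, an inhibitor of lipoprotein lipase (1.32, 0.05), were higher. Of 21 tested sirtuin and NAD genes, Sirt1, the mitochondrial deacetylase Sirt3 (-0.50, 0.032) and the muscle nicotinamide riboside kinase Nmrk2 (-1.16, 0.024) were lower. Transcripts of the transhydrogenase gene Nnt (0.49, 0.019) and of Nnmt, whose product methylates nicotinamide (1.13, 0.026), were higher, and the median of that list was 0. Enzyme activity was not measured. Without single lines, the SIRT1-linked list had 0, 1, 0, 0 and 0 higher and 4, 5, 2, 4 and 4 lower members and the NAD list 0, 1, 0, 1 and 1 higher and 2, 2, 1, 1 and 1 lower. Without both lines 4 and 7 the counts were 0 higher and 6 lower in the former and 1 higher and 1 lower in the latter.

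Glycolysis and hypoxia genes were lower in 6 and higher in 2 of 34 tested (8.43% and 7.43% over all tested genes). The median of -0.34 came from lines 4 and 7 (-0.91 and -0.62, against -0.02 to 0.09 in the other 3). Without lines 4 and 7 the median was 0.01, with 5 higher and 2 lower, and without single lines there were 1, 2, 1, 4 and 1 higher and 2, 6, 4, 2 and 2 lower. All 8 called members had the same direction in 5 of 5 lines, which a test blocked by line favours. Egln3, an oxygen-sensing prolyl hydroxylase, had the largest lower value of the list, at 89.8, 138, 124, 38.1 and 54.1 CPM in siLmod1 and 26.8, 60.5, 47.6, 8.19 and 17.3 in siSirt1, lower in each line (-1.70, SE 0.16, 0.0014). Its counterpart in direction was Pfkfb3, which sets the level of the glycolytic activator fructose 2,6-bisphosphate and was higher (1.05, 0.012).

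In the list of stress genes of the endoplasmic reticulum and the ATF4 pathway, members that passed the test were all higher in siSirt1. Genes of amino acid supply are in a separate list below, where calls went in both directions. When proteins misfold in the endoplasmic reticulum, ATF6 and XBP1 raise chaperones through an element known as ERSE, and the kinase PERK acts through ATF4, which raises amino acid supply and stress genes through elements known as CARE. Of 32 tested members 8 were higher and none lower (7.43% and 8.43% of all tested genes were), with a median of 0.24. Pdia6, a disulfide isomerase of the reticulum, stood at 162, 188, 178, 113 and 222 CPM in siLmod1, 392, 324, 290.03, 439 and 589 in siSirt1 and 304, 299.6, 283, 307 and 455 in siCtrl. The knockdowns did not overlap, and siSirt1 was close to siCtrl in lines 2 and 3 and above it in the others (1.15, SE 0.16, edgeR adjusted p = 0.005).

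Other called members were the isomerase Pdia4 (0.65, 0.041), the secreted reticulum proteins Manf (0.62, 0.015) and Creld2 (0.64, 0.033), Eif2ak3, which encodes PERK (0.59, 0.032), the pseudokinase Trib3 (1.01, 0.016), the stress cofactor Nupr1 (1.07, 0.039) and Sesn2, an ATF4 and p53 target (0.75, 0.013). Trib3 stood at 14.2, 8.48, 56.7, 12.4 and 16.5 CPM in siLmod1 and 23.8, 16.4, 69.3, 36.9 and 62.3 in siSirt1, with log2 differences of 0.66, 0.96, 0.28, 1.45 and 1.74. Lines 4 and 7 gave the largest differences and line 3 the smallest, as in the list as a whole (line medians 0.24, 0.05, -0.04, 0.61 and 0.38). With 1 line left out 2, 7, 7, 4 and 4 members were called higher. Without lines 4 and 7 there were 6 higher and 1 lower, with a median of 0.04. Only 1 member was called without the block, higher in siSirt1.

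To show the elements by which these genes are grouped, the promoter windows of RefSeq (GRCm38.p6, 250 bases before to 50 after a gene's start) were searched on both strands. ERSE was spelled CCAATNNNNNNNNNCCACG and CARE was spelled TGATGNAAN (N is any base, and neither spelling contains the other). CARE sites of Iars and Slc1a4, which were called lower, are not printed. The sites of genes called higher are printed as examples of both spellings, read on the strand that carries the motif. The match is in capitals, with 8 bases on either side.
Pdia6 (ERSE, chr12:17266483-17266517, plus strand): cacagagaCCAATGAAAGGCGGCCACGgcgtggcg
Creld2 (ERSE, chr15:88819512-88819546, minus strand): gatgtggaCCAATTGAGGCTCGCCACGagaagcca
Nupr1 (CARE, chr7:126625565-126625589, plus strand): gccctgtcTGATGCAATctggccct
Trib3 (CARE, chr2:152344031-152344055, plus strand): cgcccggcTGATGTAAAcctgagct
Asns (CARE, chr6:7693216-7693240, minus strand): cagccacaTGATGAAACttcccgca
ERSE was found in 9 of the 29 stress response genes with a window and in 0.137% of all 27025 genes with one. CARE was found in 6 of the 29 and in 4.50% of all genes with a window. Of the 7 called genes of the list with a window, Pdia6 and Creld2 held ERSE, and Trib3 and Nupr1 held CARE. The other ERSE genes did not pass the test, with log2 fold changes from -0.22 for Canx to 0.80 for Derl3 and 0.24 for Hspa5, the chaperone BiP. The letters were thus present in both called and uncalled members, and a match is not evidence that a factor bound there.

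Amino acid synthesis, transport and tRNA charging genes gave 7 higher and 3 lower of 33 tested (7.43% and 8.43% over all tested genes), with a median of 0.20. The serine pathway enzyme Phgdh stood at 58.5, 54, 186, 69.4 and 62 CPM in siLmod1 and 88.3, 103, 251, 177 and 164 in siSirt1 and was higher in each line (0.87, SE 0.14, 0.0078). Asns, asparagine synthetase (0.53, 0.02), the one-carbon enzymes Mthfd2 (0.59, 0.045), Aldh1l2 (0.66, 0.0064) and Shmt2 (0.36, 0.045), the proline enzyme Aldh18a1 (0.53, 0.031) and the leucine transporter Slc7a5 (0.61, 0.006) were also higher. The tRNA synthetase Iars (-0.51, 0.014), the tRNA exporter Xpot (-0.43, 0.016) and the neutral amino acid transporter Slc1a4 (-0.45, 0.043) were lower. CARE was in 9 of the 26 genes of this list with a window, on both higher (Asns) and lower members (Iars, Slc1a4). With 1 line left out the higher members numbered 4, 5, 3, 5 and 4 and the lower 0, 2, 0, 2 and 3, without lines 4 and 7 there were 9 higher and 5 lower, and none was called without the block.

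Ribosomal protein genes showed a small shift, with 7 of 49 tested higher (14.3%, where 7.43% of all tested genes were higher), none lower and a median of 0.17. The largest was Rplp1, a stalk protein, at 499, 567, 618, 534 and 463 CPM in siLmod1 and 900.1, 731, 874, 1032 and 807 in siSirt1 without overlap (0.62, SE 0.10, 0.0078). Called ribosomal genes numbered 1, 7, 1, 2 and 2 without lines 1, 2, 3, 4 and 7, 2 without both lines 4 and 7, and 11 with library totals only or 13 in limma on TPM.

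**Figure D5:**
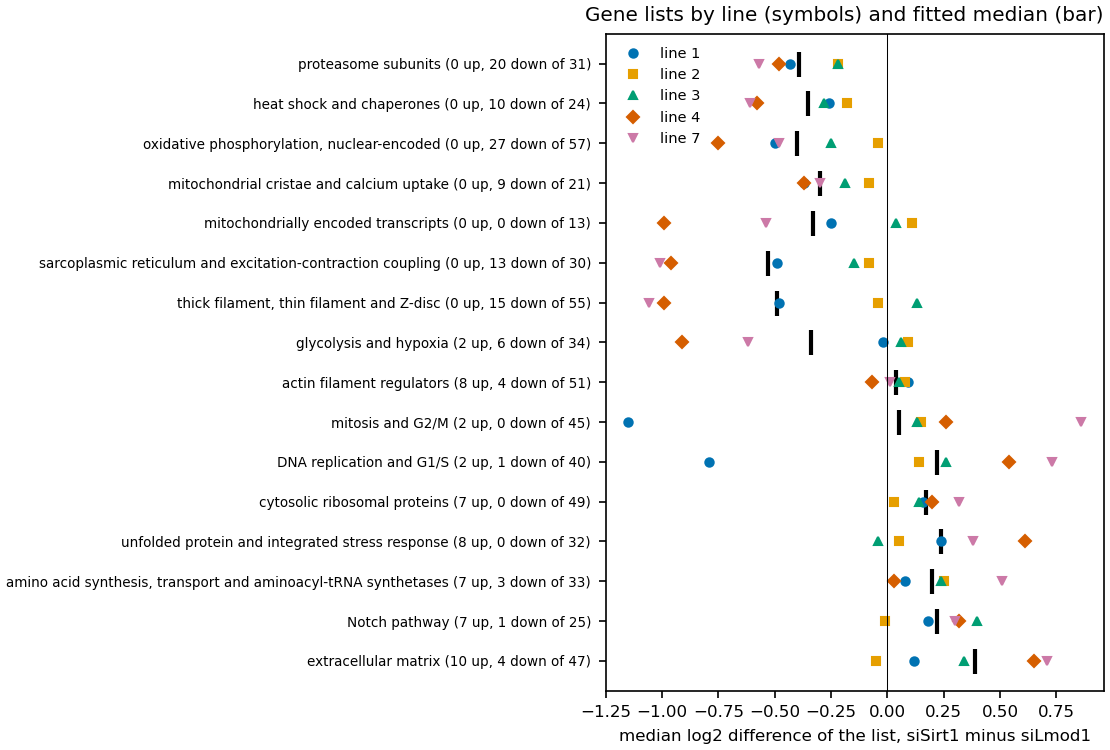
Median log2 difference, siSirt1 minus siLmod1, of 16 gene lists in each primary line (symbols) and in the fit over all 5 lines (black bar); labels give the members called higher (up) and lower (down) of those tested. Proteasome and chaperone medians were below 0 in each line, contractile medians were lowest in lines 7 and 4 (-1.06 and -0.99), glycolysis medians were -0.91 and -0.62 in lines 4 and 7 and near 0 in the others, and mitosis genes ran from -1.15 in line 1 to 0.86 in line 7.

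Signalling lists had called members in both directions, against 7.43% of all tested genes higher and 8.43% lower. Of 25 tested Notch pathway genes, which keep muscle stem cells undifferentiated, 7 were higher and 1 lower, with a median of 0.22. Notch3 stood at 38, 36.9, 37.2, 38.1 and 81.5 CPM in siLmod1, 133, 67.7, 124, 82.3 and 215 in siSirt1 and 78.1, 73.8, 128, 41.8 and 159.6 in siCtrl. It was higher in siSirt1 than in siLmod1 in each line, with siLmod1 also under siCtrl in all 5 (1.31, SE 0.15, 0.0024). The receptor Notch2 (0.62, 0.0061), the ligand Jag1 (0.75, 0.019), the modifier Lfng (1.00, 0.035), the coactivator Maml2 (1.10, 0.012), the target Hes1 (0.84, 0.041) and Dtx4 (0.89, 0.0061) were higher. Leaving out single lines gave 5, 7, 3, 4 and 7 higher and 0, 1, 0, 1 and 0 lower, leaving out lines 4 and 7 gave 8 higher and 2 lower, and none was called without the block.

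TGF-beta, activin and BMP genes were called higher in 11 and lower in 5 of 44 cases (median 0.26). The signal transducer Smad3 stood at 53, 73.5, 79, 84.2 and 63.3 CPM in siLmod1 and 109.5, 159.8, 155, 129 and 94.2 in siSirt1, all higher in siSirt1 (0.79, SE 0.12, 0.007). The BMP targets Id1 (0.74, 0.019) and Id3 (0.67, 0.018), which block MyoD partners, and the ligand Tgfb2 (1.23, 0.019) were higher. The activin and myostatin antagonist Fst, follistatin, was lower, at 186, 549, 184, 93.3 and 470.2 CPM in siLmod1 and 141, 163, 85.8, 61.1 and 207 in siSirt1 (-1.09, 0.0076), as was the receptor Tgfbr1 (-0.49, 0.01). Omitting single lines, the list had 5, 11, 5, 5 and 8 higher members and 2, 3, 1, 4 and 5 lower ones. Without both lines 4 and 7 the balance turned, with 7 higher and 9 lower.

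Insulin-like and other growth factor genes gave 10 higher and 4 lower of 41 tested (median 0.19). Igf1r (0.62, 0.026), its docking protein Irs1 (0.62, 0.0069) and the binding proteins Igfbp3 (0.98, 0.026) and Igfbp4 (1.52, 0.024) were higher, and Igfbp5, the main binding protein of differentiating myoblasts, was lower (-1.05, 0.037). The Sprouty inhibitors of growth factor receptors split: Spry1 was lower, at 43.6, 55.9, 37.4, 41.8 and 35.5 CPM in siLmod1 and 12.2, 27.6, 11.8, 17.6 and 16.5 in siSirt1 without overlap (-1.45, SE 0.14, 0.0015), and Spry4 was higher (1.20, 0.0034). Dlk1, an imprinted Notch-like growth regulator, had the largest fitted value (3.10, 0.0072) at levels of at most 5.36 CPM, and it was listed at 0 in siSirt1 line 7. Without single lines there were 4, 8, 4, 6 and 3 higher and 2, 3, 2, 3 and 3 lower members, and without lines 4 and 7 there were 7 higher and 5 lower. Wnt genes were mixed, with 6 higher and 4 lower of 40 (median 0.12), among them the inhibitor Nkd1 (1.61, 0.0091) and the receptor Fzd4 (1.08, 0.013) upward and Porcn, which lipidates Wnt ligands (-0.92, 0.0024), downward; without single lines the Wnt list had 6, 7, 4, 4 and 5 higher and 3, 3, 1, 5 and 3 lower, and without lines 4 and 7 its balance turned to 5 higher and 6 lower.

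Matrix genes were called higher in 10 and lower in 4 of 47 tested (7.43% and 8.43% over all tested genes), with a median of 0.39. Col3a1, type III collagen, stood at 162, 84.4, 175, 203 and 293 CPM in siLmod1, 423, 102, 372, 701 and 785 in siSirt1 and 299.7, 115, 433, 428 and 497 in siCtrl, higher in each line than in siLmod1 with the groups overlapping (1.12, SE 0.18, 0.0076). Col5a3 (1.47, 0.0086), Col12a1 (1.45, 0.012), biglycan, Bgn (1.66, 0.039), the protease Mmp2 (1.23, 0.041) and its inhibitor Timp3 (1.79, 0.015) were higher, while Ogn, Mfap4, Aspn (-1.65, 0.032) and the crosslinker Loxl1 (-1.27, 0.016) were lower. Summed fibroblast markers were higher in siSirt1 in 5 of 5 lines, and 1 of their 8 tested members, Col3a1, was called. Col3a1 alone reached 293 CPM in siLmod1 and 785 in siSirt1, where the sums reached 305 and 803. The sum thus largely restates Col3a1. Its median was 186 CPM in siLmod1, 440 in siSirt1 and 437 in siCtrl. The part of these markers in the matrix values was not tested. The higher matrix members numbered 5, 16, 3, 8 and 4 without single lines, without lines 4 and 7 there were 11 higher and 7 lower, and none was called higher without the block.

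Most regulators of differentiation did not pass the test over 5 lines. Myog, the transcription factor of commitment, stood at 1342, 1618, 1460.1, 626 and 2239 CPM in siLmod1 and 2112, 2225, 2322, 466 and 1908 in siSirt1. It was higher in siSirt1 in lines 1, 2 and 3 and lower in lines 4 and 7, with log2 differences of 0.57, 0.47, 0.66, -0.55 and -0.40, and the fitted value was 0.15 (SE 0.20, edgeR adjusted p = 0.65). Myod1 was at 0.07 (SE 0.11, adjusted p = 0.7), Myf5 at -0.17 (0.46), and the fusion proteins myomaker, Mymk, and myomixer, Mymx, at -0.20 (0.36) and 0.25 (0.57). Mymx had the split by line of Myog. None of these passed the test, which does not show that they are alike. Among 18 tested myogenic regulators, Id1, Id3 and the E protein gene Tcf3 (0.38, 0.03) were higher and Mef2d (-0.43, 0.024) lower. The shares of all tested genes were 7.43% higher and 8.43% lower. When single lines were left out, the regulator list had 2, 3, 1, 2 and 1 higher and 0, 1, 0, 0 and 0 lower. Without both lines 4 and 7 the list had 8 higher and 1 lower, with a median of 0.33.

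Pax7, the transcription factor of satellite cells, stood at 29.8, 29.8, 29.7, 47.1 and 44 CPM in siLmod1, 70.8, 35, 63.2, 147 and 144 in siSirt1 and 47.1, 43.2, 64.6, 63.7 and 83.8 in siCtrl. Each line had more Pax7 in siSirt1, least so in line 2, and siLmod1 was under siCtrl in all 5 (1.12, SE 0.18, adjusted p = 0.008, and 0.12 without the block). The satellite cell and myoblast list as a whole was split, with 4 higher (Pax7, Vcam1, Fgfr1 and Fgfr4) and 4 lower (Spry1, Met, Itga7 and Ncam1) of 17 tested. Of 27 fusion genes 3 were higher, including Rac1 and Ehd2 (1.29, 0.024), and 5 lower, including Tmem182 (-0.97, 0.024), Jam2 (-0.90, 0.012), the adaptor Crk (-0.57, 0.0055) and the membrane repair protein Dysf (-0.61, 0.04). For both lists, the shares over all tested genes were 7.43% higher and 8.43% lower. Leaving out single lines, the satellite list had 4, 4, 2, 2 and 2 higher and 2, 4, 2, 4 and 4 lower members and the fusion list 2, 2, 1, 2 and 2 higher and 2, 4, 3, 2 and 4 lower. Without lines 4 and 7 the counts were 3 higher and 5 lower and 4 higher and 4 lower.

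Cell cycle genes differed in opposite directions between lines, and few passed the test. The proliferation marker Mki67 stood at 19, 27.9, 5.97, 14.4 and 42.7 CPM in siLmod1 and 8.84, 39.8, 16.1, 32.2 and 111 in siSirt1, lower in line 1 and higher in the other 4 (0.63, SE 0.34, adjusted p = 0.24). Mitosis genes had line medians of -1.15, 0.15, 0.13, 0.26 and 0.86, with 2 of 45 called, both higher: Kif4 (1.08, 0.016) and Cdc25b (1.06, 0.02). Of 40 replication genes, Ccnd1 and Mcm7 (0.53, 0.018) were higher, and Rrm1, the large subunit of ribonucleotide reductase, was lower in each line (-1.05, 0.0075). Across all tested genes 7.43% were called higher and 8.43% lower. When single lines were left out, the mitosis list had 5, 2, 0, 2 and 1 higher and 0, 0, 0, 0 and 0 lower members and the replication list 5, 2, 1, 2 and 0 higher and 1, 1, 1, 1 and 1 lower. Without lines 4 and 7 the mitosis median was -0.29, with 2 higher and 1 lower, and the replication median -0.17, with 2 higher and 4 lower.

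Genes of p53 and growth arrest gave 4 higher and 4 lower of 28 tested (median 0.07). Over all tested genes 7.43% were higher and 8.43% lower. Cdkn1a, which encodes p21, was at 1376 to 2714 CPM in siLmod1 and 933 to 2170.3 in siSirt1, lower in 5 of 5 lines (-0.47, SE 0.11, 0.029). The p53 target receptor Eda2r stood at 196, 195, 189, 237 and 209.5 CPM in siLmod1 and 128, 133, 123, 135 and 128 in siSirt1, without overlap (-0.74, 0.0029). Cdkn1b, encoding p27 (-0.52, 0.0061), and cyclin D3, Ccnd3 (-0.54, 0.022), were lower. Mdm2, the ligase that degrades p53 (0.45, 0.013), Polk (0.67, 0.021), Sesn2 and Cdkn1c were higher. The 3 inhibitors of the p21 family therefore differed in direction, p57 being higher and p21 and p27 lower. The counts without single lines were 1, 4, 2, 2 and 4 higher and 2, 4, 3, 3 and 2 lower members, and without lines 4 and 7 there were 5 higher and 5 lower.

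The siCtrl libraries show where the mean level without either knockdown lay. Among the 1115 genes higher in siSirt1, the mean siCtrl level lay between the knockdowns and nearer siLmod1 for 604 (54.2%), between and nearer siSirt1 for 294 (26.4%), above both for 57 and below both for 160. Among the 1264 lower genes, 437 (34.6%) were between and nearer siLmod1, 485 (38.4%) between and nearer siSirt1, 204 above both and 138 below both. For all 14998 tested genes the shares were 24.1% between and nearer siLmod1, 17.4% between and nearer siSirt1, 18.0% above both and 40.5% below both. These positions are of mean CPM of 5 libraries, scaled to library totals without TMM, and were not tested. Nearness is by difference in CPM, which favours the lower group more than a log2 difference would. Among called genes with siCtrl between, it was more often nearer the lower knockdown in both directions.

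By list, the called members differed in this respect, under the same limits. Of the 27 called oxidative phosphorylation genes, siCtrl lay between for 24, nearer siSirt1 for 17 and nearer siLmod1 for 7. Of the 13 called reticulum and coupling genes, it lay between for 8, nearer siLmod1 for 7 of those, and above both for 5. Of the 8 Notch genes it lay between for 7, nearer siSirt1 for 6, and of the 8 stress response genes between for 6, nearer siLmod1 for 5. By mean CPM, siLmod1 lay further from siCtrl than siSirt1 did for Capza1, Rac1, Notch3 and Pdia6. For Ogn, Tcap, Srl, Chchd3 and Hsf2, siSirt1 lay further.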

How the data were processed

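Polyadenylated RNA of 5 siSirt1 and 5 siLmod1 libraries was compared; 5 siCtrl libraries gave levels only. The authors deposited unnormalized counts by Ensembl gene, 1 table per pair of groups, and TPM values, which are scaled for transcript length and library. The submitters' processing notes name DESeq2 and mm10. Neither the aligner nor the counting tool nor the annotation release is given in the sources used here. Symbols and coordinates came from GENCODE M21 on the same build (49056 of 49315 IDs), and IDs without a symbol held 0.0096% of counts. The values of all 15 libraries were identical in the raw tables that share them.

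CPM is the deposited count scaled to the library total. Genes were kept by filterByExpr, scaled by TMM and tested with edgeR 4.0.16 (quasi-likelihood F test, R 4.3.3) on group plus line; a call is a Benjamini-Hochberg adjusted p under 0.05 over all 14998 genes, whatever the fold change. Fold changes on the log2 scale are siSirt1 minus siLmod1. Parentheses after a gene give its log2 fold change and then this adjusted p. Line differences and principal components used TMM-scaled log2 CPM with 0.5 counts added. Alternatives used DESeq2 1.42.0 and limma 3.58.1, the latter on log2(TPM + 0.5) or log2(TPM + 1). Summaries used Python 3.11.15, numpy 2.4.6, pandas 2.3.3 and scipy 1.17.1. The deposited tables of normalized counts were not used.

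The labels number the replicates, and the series' design names 5 lines. After group means were removed, same-numbered libraries correlated across genes at 0.304 to 0.745 (median 0.672, 5 pairs) and others at -0.467 to 0.207, so the number was used as a block. The siSirt1 library of line 1 was the weakest pair (0.304, against 0.207 with siLmod1 line 3). A level of 3 counts was 0.0942 to 0.143 CPM, for counting error only. The p-values measure spread between these 5 lines, with 1 library each per group.

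The libraries, gene lists and naming rule were chosen with earlier results of these data known. Named genes were the targets, 9 genes of differentiation and growth, the 12 largest changes per direction among calls whose mean reached 5 CPM, with 1 sign of the CPM difference in all 5 lines (predicted gene models left out; CPM is not TMM-scaled, and with TMM the line 4 differences of Dcx, Vgll2 and Cadps2 were -0.03, -0.06 and -0.03), and up to 4 called members of smallest p per list. Further called list members were named after their values were seen, to show a list's makeup. The 37 lists were written from general knowledge; their counts are read against the shares of all genes called. The test was checked on simulated data drawn from these libraries. Some called list members are not reported here by name.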

Additional observations from a re-analysis of the deposited data

Results flagged for a closer look

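The 5 line differences of each named gene, and the 5 line medians of each gene list, were checked for 1 line far from the other 4 (Dixon's test, critical value 0.71). Of 177 such sets, 6 had one; chance alone gives about 1 in 20, so these are listed as values only. For Islr2 the log2 difference in line 7 was -4.57, with the others between -2.37 and -1.68; the siSirt1 level there was 0.571 CPM. For Ppp1r27, line 4 stood at -3.68 and the others between -2.29 and -1.79, and the siLmod1 library of line 4 had the highest level (36.8 CPM). For Iars, line 7 stood at -0.12 and the others between -0.66 and -0.52. For Ndrg1, a hypoxia-induced gene, line 2 stood at 0.04 and the others between 0.76 and 1.01. The median of the satellite cell and myoblast list was 0.46 in line 4 and -0.01 to 0.13 elsewhere, and the median of the SIRT1-linked list was -0.33 in line 7 and -0.09 to 0.01 elsewhere.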

How the results depend on the processing

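The line block decided the number of calls: without the replicate block 229 genes passed (102 higher, 127 lower), and with all 15 libraries in 1 fit 4210 did (2126 and 2084). Requiring 1.5-fold or more left 1306 (683 and 623), a setting added after the data were seen, as was leaving out lines 4 and 7. Leaving out 1 line gave 946 to 1771 calls, 429 to 822 higher and 517 to 949 lower, with lines 3, 1 and 4 costing the most (946, 1042 and 1395). Limma on TPM called 712 or 711 genes lower (pseudocount 0.5 or 1). DESeq2 (3148), no filter (2933), a mean of 1 CPM or more (2436), RLE size factors (2386) and library totals (2313) stayed within 1.5 times of 2379. Lmod1 stood at 2.25 without the block, where it did not pass. With labels exchanged only within a line, the differences of 2.08 (Lmod1) and -2.67 (Sirt1) had an exact permutation p of 0.0625, the smallest that 5 pairs allow. Of 131 called named genes other than the targets, 18 passed without the block, 94 to 122 with 1 line left out, 117 without lines 4 and 7, 120 and 122 of 130 in limma with pseudocounts 0.5 and 1 and 130 or 131 under the other settings. Among named genes, none called changed sign; of the uncalled, Myod1 was at -0.01 to 0.13 with 1 replicate left out (-0.01 without line 4) and Mymk at 0.02 without lines 4 and 7. Of 590 list medians under the alternatives, 21 moved by more than the SD of the list's line medians. In all, 27, in 10 lists, took the opposite sign, among them DNA replication (0.22 to -0.17), mitosis (0.05 to -0.29) and glycolysis (-0.34 to 0.01) without lines 4 and 7; each of the 10 reported medians was smaller than the SD of its line medians. With 4 residual degrees of freedom, and the siSirt1 library of line 1 correlating at only 0.304 with its siLmod1 partner, the p-values rest on a pairing that is weakest for line 1. Depth limited genes under the level of 3 counts (0.0942 to 0.143 CPM).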

Other observations

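Lysosome and autophagy genes differed in both directions, with 5 higher and 7 lower of 47 tested (7.43% and 8.43% over all tested genes). Their median was -0.02. Ctns, the lysosomal cystine exporter, stood at 20.2, 17.5, 16.6, 12.5 and 17.1 CPM in siLmod1, 52.8, 36.9, 37.6, 48.1 and 65.6 in siSirt1 and 53.2, 32.9, 43, 29.9 and 43.6 in siCtrl. The knockdowns did not overlap, and siCtrl was nearer siSirt1 in lines 1, 2, 3 and 7 (1.43, SE 0.14, edgeR adjusted p = 0.0014, and 0.0076 without the block). The lysosomal membrane protein Lamp2 was also higher (0.65, 0.0052). Lower were Tfeb, the transcription factor of lysosomal genes (-1.14, 0.0082), the proton pump subunit Atp6v1a (-0.78, 0.0049) and the autophagosome protein Map1lc3a (-0.95, 0.0049). Without single lines there were 3, 3, 3, 3 and 3 higher and 3, 4, 3, 5 and 6 lower, and without lines 4 and 7 there were 3 higher and 12 lower. With library totals only the list's median was 0.06.

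Antigen presentation genes in the interferon list were split. B2m, the light chain of class I molecules, stood at 139, 87.7, 182, 93 and 134 CPM in siLmod1 and 209, 129, 228, 147 and 257 in siSirt1, higher in 5 of 5 lines (0.54, 0.0075). The class I heavy chain H2-D1 (0.95, 0.014), the peptide transporter Tap1 (0.91, 0.021) and Psmb9 (1.27, 0.024) were higher too, while the related heavy chain H2-K1 (-0.70, 0.0057) and the antiviral tether Bst2 (-1.23, 0.0068) were lower. These 6 of 26 tested (23.1%) were all the calls of that list (median 0.20), where 15.9% of all tested genes were called. The H2-D1 and H2-K1 genes are close in sequence, and how the counting split reads between them is not given in the sources used here.

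In the list of NF-kB and inflammatory targets, 3 of 18 tested were higher, Vcam1 (1.22, 0.012), Nfkb1 (0.38, 0.04) and Tnfaip2 (0.54, 0.046), and Sod2 was lower (median 0.13). Of 32 cholesterol and fatty acid synthesis genes, 2 were higher, among them Acly (0.56, 0.012), and 5 lower, among them Hmgcs1 (-0.47, 0.01), Sc5d (-0.63, 0.01) and Mvd (-0.53, 0.02), with a median of -0.04. The clock list had Ciart (0.94, 0.022) and Cry2 (0.33, 0.035) higher and Bhlhe41 (-0.52, 0.008) lower of 18 tested (median 0.15). Beside the NF-kB, cholesterol and clock lists, 7.43% of all tested genes were higher and 8.43% lower. In the clock list 16.7% of tested members were called, near the 15.9% of all tested genes. Without single lines the NF-kB list had 3, 1, 1, 1 and 1 higher and 0, 2, 0, 0 and 0 lower, the interferon list 1, 5, 2, 2 and 2 higher and 2, 2, 2, 2 and 2 lower, the cholesterol list 1, 1, 1, 1 and 2 higher and 2, 3, 2, 2 and 4 lower and the clock list 0, 0, 0, 2 and 2 higher and 1, 1, 1, 1 and 1 lower. Without both lines 4 and 7 the counts were 2 higher and 2 lower, 2 higher and 2 lower, 5 higher and 4 lower and 7 higher and 1 lower in the same order of lists, and with library totals only the cholesterol median was 0.04.

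Of the markers of other cells, Ngfr, a neurotrophin receptor in the Schwann cell list, was called higher (2.80, 0.019), at 0.347, 2.22, 0.597, 0.382 and 0.184 CPM in siLmod1 and 14, 4.47, 6.67, 2.11 and 0.809 in siSirt1, and Tek, an endothelial receptor kinase, was called lower (-0.74, 0.049). Tek stood at 0.536, 0.774, 1.04, 89 and 0.369 CPM in siLmod1 and 0.611, 0.554, 0.540, 44.5 and 0.238 in siSirt1, high in line 4 alone, and its line 1 difference was above 0 (0.11). Its call was lost with library totals only (adjusted p = 0.073) and without line 4 (0.42). None of the 3 tested macrophage and 2 tested adipocyte markers was called by edgeR.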
